A study of Mus musculus with 19 samples.

Results

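Genes that are commonly read as eosinophil or basophil genes, namely Cd200r3, Il5ra, Ccr3, Siglecf, Epx, Prg2, Alox15, Csf2rb, Csf2rb2 and Fcer1a, were followed in mouse endometrium. They are 10 of the 49089 genes with deposited counts, and all 10 were matched by symbol through the GENCODE annotation of GRCm38. Cd200r3 and Il5ra were selected on their fall in CPM after mating in these same libraries, so their difference from estrus is given as a description. It enters some counts of called genes below, from which nothing is read. The libraries were made from endometrium scraped from C57Bl/6 wild-type females. The 3 CONT libraries came from virgin females in estrus, collected around ovulation. For the 4 INT libraries, females were mated with intact Balb/c males and killed on day 3.5 pc. These females were aged between 8 and 14 weeks when they were put with the males. For the 4 SVX, 4 SVX_VAS and 4 VAS libraries, the males had been surgically modified and the day was the same. Titles and descriptions of these 12 libraries name different surgeries, so each group is called here by the prefix of its description and carries no surgery name. Each library is a pool of animals whose number was not given, so p-values measure the spread between pools.

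Eosinophils and basophils are granulocytes of type 2 immune responses. Interleukin-5 drives eosinophil production through a receptor made of a specific alpha chain, Il5ra, and a shared beta chain, Csf2rb, which also serves the receptors of interleukin-3 and GM-CSF. Eotaxins such as Ccl11 draw eosinophils into tissues through Ccr3, and eosinophils are known to enter the rodent uterus around estrus. Their granules hold the peroxidase Epx and the major basic protein Prg2. Basophils and mast cells carry the IgE receptor with its alpha chain Fcer1a, and Cd200r3 is a receptor of the CD200 receptor family known from these cells.

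The libraries held between 12661266 and 31781270 counts on genes. The scaling factors of the CONT libraries were between 0.848 and 0.882, those of VAS replicates 2 and 3 were 1.29 and 1.33, and those of all other libraries were between 0.937 and 1.02. Levels are CPM, counts scaled to a common library size with these factors. The filter required 3 CPM or more in 3 or more libraries of any group. Of the 10 genes, 6 passed and 4 (Siglecf, Epx, Prg2 and Fcer1a) did not. Cd200r3 and Il5ra passed through the 3 CONT libraries and INT replicate 1. Ccr3 was just inside with 3 libraries at the minimum, all mated (VAS replicates 1 and 3 and SVX_VAS replicate 4), and Siglecf just outside with 2.

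Most of the genes that define the named cell types were at or near 0. Epx had at most 5 counts in a library and Fcer1a at most 2. Of the other granule genes, Ear1 had no count in any of the 19 libraries, Prg3 had 3 counts in all and Ear10 had 2. Ear2 and Ear6, ribonucleases of the same family, were low but present, with 191 and 130 counts in all and at most 22 and 18 in a library. The basophil proteases Mcpt8 and Prss34 had 2 counts and 1 count in all 19 libraries together, and Ms4a2, the beta chain of the IgE receptor, had 2. In CONT, where Cd200r3 and Il5ra were high, Ear1, Prg3, Mcpt8 and Ms4a2 had 0 counts and Epx, Ear2 and Ear6 had 10, 20 and 21 over the 3 libraries. Per kilobase of exon, the mean CONT level was 5.50 CPM for Il5ra and 3.91 CPM for Cd200r3, against 0.487 for Ccr3, 0.165 for Siglecf, 0.0704 for Epx and 0.0519 for Prg2. Because its defining granule and protease genes were absent or low, the label of the set is not used as a cell type, and the 10 genes are described one by one. In bulk tissue, fewer cells of a type and less RNA per cell cannot be told apart.

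Cd200r3 lies at chr16:44943678-44981380 on the plus strand of GRCm38, with 9 merged exon blocks, and Il5ra at chr6:106710357-106749037 on the minus strand, with 13. Both are protein-coding and share no exon with a gene on the opposite strand. Because these genes moved together and Ccr3 did not move with them, the 250 bases before their starts are shown here, read 5′ to 3′ from RefSeq (GRCm38.p6). They span chr16:44943428-44943677 (plus strand), chr6:106749038-106749287 (minus strand) and chr9:124021721-124021970 (plus strand). Capitals mark matches on either strand to AGATAA, to the form AGATAG, to the form TGATAA or else to TGATAG, which are letters bound by GATA factors.
Cd200r3: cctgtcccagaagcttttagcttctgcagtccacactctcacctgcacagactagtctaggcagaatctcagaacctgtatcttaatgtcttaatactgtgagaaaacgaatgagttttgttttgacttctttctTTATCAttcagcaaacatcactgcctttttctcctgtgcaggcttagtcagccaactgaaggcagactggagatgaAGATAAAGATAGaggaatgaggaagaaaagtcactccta
Il5ra: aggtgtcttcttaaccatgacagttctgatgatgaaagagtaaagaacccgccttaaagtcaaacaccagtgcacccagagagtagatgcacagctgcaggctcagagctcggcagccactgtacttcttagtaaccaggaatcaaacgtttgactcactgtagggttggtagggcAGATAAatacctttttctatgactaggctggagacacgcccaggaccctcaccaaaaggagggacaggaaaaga
Ccr3: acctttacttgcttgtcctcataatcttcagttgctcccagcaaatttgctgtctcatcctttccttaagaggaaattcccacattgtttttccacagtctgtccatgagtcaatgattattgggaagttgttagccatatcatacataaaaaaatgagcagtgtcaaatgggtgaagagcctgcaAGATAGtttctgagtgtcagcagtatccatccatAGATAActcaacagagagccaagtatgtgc

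Cd200r3 held 3 matches, of which the pair at 39 to 28 bases before the start adjoin without overlap, Il5ra held 1 match at 74 to 69 bases and Ccr3 held 2. A promoter was found in RefSeq for 7 of the 10 genes, and 5 of the 7 held a match. Of 32851 mouse promoters of the same length, 26.5% held one. The estrogen receptor half-site GGTCA was in 35.2% of those promoters on either strand and in 0 of the 7. A match is a description of letters, and its absence says only that these letters are not in the window. Prg2, Alox15 and Csf2rb are named only.

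Cd200r3 and Il5ra were high in estrus and low in every mated group. Cd200r3 was at 24.3, 28.7 and 17.3 CPM in the 3 CONT libraries and at 4.58, 1.13, 0.283 and 0.0696 CPM in INT replicates 1 to 4. It was between 0.0712 and 0.363 CPM in SVX, between 0.0655 and 1.93 in SVX_VAS and between 0.210 and 1.76 in VAS. No mated library reached the lowest CONT library, and INT replicate 1 was the highest of the 16 mated libraries. In the summed counts, 61 of the 85 Cd200r3 counts of INT came from that library.

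Il5ra was at 18.2, 20.7 and 20.1 CPM in CONT and at 3.83, 1.44, 0.340 and 0.556 CPM in INT replicates 1 to 4. It was between 0.156 and 0.464 CPM in SVX, between 0.262 and 1.24 in SVX_VAS and between 0.772 and 1.99 in VAS. The CONT values lay close together (19.7 ± 1.32 CPM, SD, n = 3), and the mated libraries again ended below them with INT replicate 1 on top. The fitted log2 fold change (logFC) of INT against CONT was -3.97 ± 1.01 (SE) for Cd200r3 and -3.69 ± 0.639 for Il5ra. Without INT replicate 1 these became -5.54 and -4.65. Against CONT, the logFC of Cd200r3 was -6.92 in SVX, -5.05 in SVX_VAS and -4.89 in VAS, and that of Il5ra was -5.77, -4.62 and -3.81 in the same order. The 4 comparisons share the CONT libraries.

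**Figure D1:**
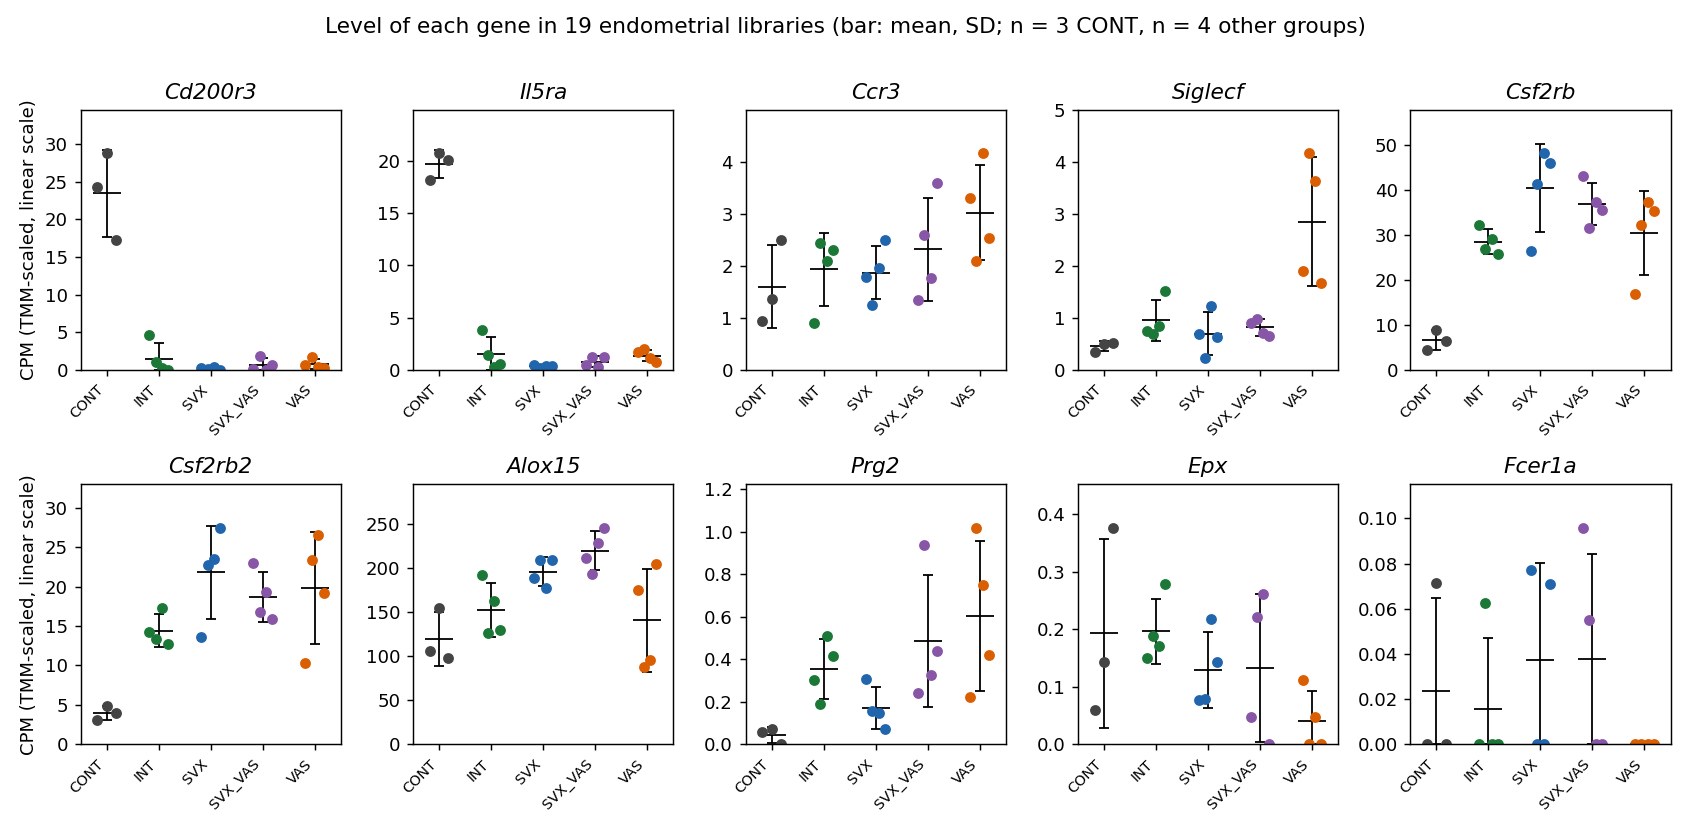
Level of each of the 10 genes in CPM (linear scale, own axis per gene) in the 19 libraries by group, with a point per library and bars for the mean and SD (n = 3 for CONT, n = 4 for the others), SD bars being cut at 0. Cd200r3 and Il5ra are at 17.3 CPM or more in every CONT library and at 4.58 CPM or less in every mated library, Csf2rb and Csf2rb2 are lowest in CONT, and Epx and Fcer1a stay at or below 0.377 CPM.

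Within the mated libraries the levels of Cd200r3 and Il5ra varied together, with r = 0.90 and rho = 0.82 over the 16 libraries on the log2 CPM scale, given as a description. The 6 mated libraries with the most Cd200r3 were also the 6 with the most Il5ra. They were INT replicates 1 and 2, SVX_VAS replicates 2 and 4 and VAS replicates 1 and 2. The cut at 6 rests on few counts. VAS replicate 3, next in order for both genes, had 9 Cd200r3 counts, as did SVX_VAS replicate 4. For Il5ra it had 24 counts, and SVX_VAS replicate 2 had 22. These 6 were also the 6 mated libraries with the highest summed CPM of 9 estrogen-response genes (among them Ltf, C3, Lcn2 and Muc1), a count chosen after the values were seen. That sum was between 17467 and 19646 CPM in CONT, 12552 and 5019 in INT replicates 1 and 2, and 236 and 313 in INT replicates 3 and 4. It was 11443 and 1905 in SVX_VAS replicates 2 and 4, and 3947 and 1400 in VAS replicates 1 and 2. None of the other 10 mated libraries was above 760 CPM.

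Other marker lists were set beside the same libraries. The summed CPM of 7 epithelial genes was between 3138 and 4263 in CONT and between 484 and 2247 in mated libraries, with INT replicate 1 highest, and 5 of its top 6 mated libraries were those with the most Cd200r3. The summed CPM of 8 pan-leukocyte genes was between 222 and 315 in CONT and between 247 and 374 in mated libraries, and INT replicate 1 was sixth of the 16. The summed CPM of 9 progesterone-response genes ran the other way, between 258 and 324 in CONT and between 484 and 1051 in mated libraries, and 5 of its 6 lowest mated libraries were among the 6 with the most Cd200r3. The leukocyte sum holds genes that moved both ways. Itgam (mean of 91.8 CPM in CONT and 17.6 in INT, SD 18.6) and Laptm5 (82.8 and 51.1) were lower in all 4 mated groups. The part of the leukocyte, estrogen-response, progesterone-response and epithelial differences in the levels of Cd200r3 and Il5ra was not tested.

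**Figure D2:**
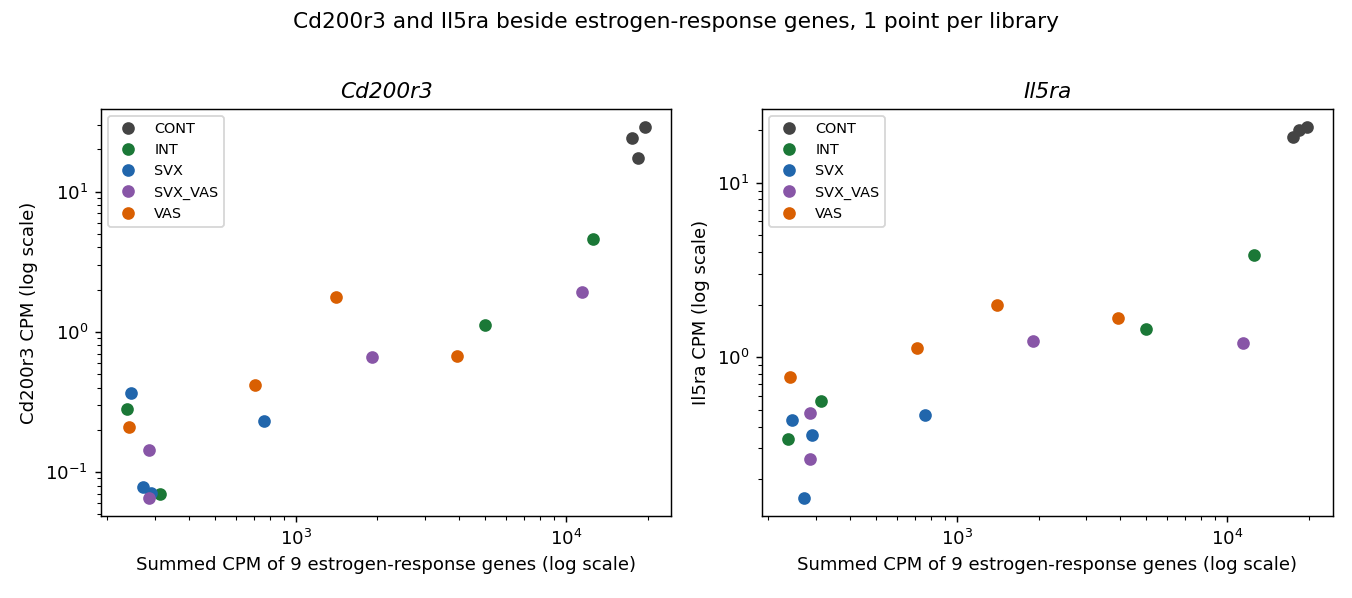
CPM of Cd200r3 (left) and Il5ra (right) against the summed CPM of 9 estrogen-response genes, both axes logarithmic, with a point per library coloured by group. The 3 CONT libraries lie at the upper right, INT replicate 1 at 12552 summed CPM comes next, and the SVX libraries lie at or below 760 summed CPM and 0.464 CPM of either gene.

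The genes most like each member were taken by Pearson r over log2 CPM of the 19 libraries, a measure that the contrast with estrus dominates. For Cd200r3 they were Sowahc (r = 0.99), Ptp4a1 (0.99) and Itgam (0.98), with r of 0.96, 0.96 and 0.94 within the 16 mated libraries. Itgam, the CD11b integrin chain of myeloid cells, went from a mean of 91.8 CPM in CONT to 17.6 ± 18.6 (SD, n = 4) in INT. Its INT libraries lay between 4.03 and 43.6 CPM. For Il5ra they were C230096K16Rik, Plekhm1 and Rnf19a (r of 0.98 each), with r of 0.94, 0.90 and 0.91 within the mated libraries. All 6 of these genes were lower in INT than in CONT, by between 1.16 and 2.39 on the log2 scale. Siglecf was below the filter and not ranked, and Ccr3 had r = -0.32 with Cd200r3 and r = -0.22 with Il5ra over the 19 libraries.

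The shared beta chain genes moved the other way. Csf2rb (chr15:78325990-78351000, plus strand) was at 4.55, 8.88 and 6.55 CPM in CONT and at 32.3, 27.0, 29.2 and 25.9 CPM in INT. Csf2rb2 (chr15:78282517-78305603, minus strand), the mouse gene for an interleukin-3 receptor beta chain, was at 3.07, 4.89 and 3.99 CPM in CONT and at 14.3, 13.4, 17.3 and 12.7 CPM in INT. No mated library of any group overlapped CONT for either gene, the lowest being VAS replicate 1 with 16.9 CPM of Csf2rb and 10.2 CPM of Csf2rb2. With edgeR's quasi-likelihood test, Csf2rb rose in INT against CONT by a logFC of 2.09 ± 0.280 (SE, FDR = 2.6e-05) and Csf2rb2 by 1.85 ± 0.300 (FDR = 1.3e-04). In the other mated groups the logFC against CONT was between 2.19 and 2.60 for Csf2rb and between 2.23 and 2.45 for Csf2rb2, with an FDR of at most 2.4e-05 in edgeR. Marker sums of other myeloid cells were set beside these levels. The summed CPM of 7 dendritic cell genes was between 21.3 and 41.0 in CONT and between 72.9 and 124 in mated libraries. That of 14 mast cell genes was between 58.1 and 91.5 in CONT and between 236 and 549 in mated libraries. That of 10 macrophage genes was between 149 and 250 in CONT and between 246 and 382 in mated libraries. Of these, the dendritic cell and mast cell sums did not overlap, and the macrophage sum did. The macrophage gene Cd68 went the other way, from 42.5 CPM in CONT to 18.3 in INT. Most of the mast cell sum was Hdc (mean of 36.6 CPM in CONT and 309 in INT) and Kit (20.3 and 58.2). The mast cell protease gene Cpa3 was at 0.170 and 0.354 CPM, and Slc18a2 at 17.4 and 14.4. The sum is therefore not read as a level of mast cells. The part of dendritic cells, mast cells and macrophages in the levels of Csf2rb and Csf2rb2 was not tested.

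Csf2rb and Csf2rb2 are neighbouring copies of each other. Of the 100-base windows of their annotated transcripts, 334 are identical in both, which is 4.63% of those of Csf2rb and 6.82% of those of Csf2rb2. The counting could therefore lose or split some of their reads. The ratio of Csf2rb to Csf2rb2 counts was between 1.39 and 2.26 in the 19 libraries, with a median of 1.85 and no separation of CONT (1.48, 1.82 and 1.64) from the rest. Their r over the 19 libraries was 0.98, and 0.87 within the mated libraries. The genes most like Csf2rb over the 19 libraries were Gm3468, Mpp1 and Tek (r of 0.98 each), and those most like Csf2rb2 were Gm16503, Pcdhb13 and Pcdhgb5 (0.98 each).

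The alpha chain genes that pair with Csf2rb in other receptors did not pass the test. Csf2ra, the GM-CSF receptor alpha chain, was at 23.9 ± 3.60 CPM (SD, n = 3) in CONT and 27.6 ± 4.86 (n = 4) in INT, with a logFC of 0.21 in edgeR (FDR = 0.291). Il3ra, the interleukin-3 receptor alpha chain, was at 5.50 ± 0.876 CPM in CONT and 6.48 ± 0.966 in INT, with a logFC of 0.24 (FDR = 0.404 in edgeR). Of the chains of the interleukin-5 receptor, the alpha chain gene was thus lower and the beta chain gene higher on day 3.5, and the other alpha chain genes did not pass the test.

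Ccr3, the eotaxin receptor (chr9:124021971-124031689, plus strand), did not fall with Il5ra. It was at 0.945, 1.36 and 2.49 CPM in CONT, at 0.902, 2.44, 2.10 and 2.30 in INT, between 1.25 and 2.49 in SVX, between 1.34 and 3.58 in SVX_VAS and between 2.09 and 4.16 in VAS. CONT overlapped every mated group. The logFC against CONT was 0.30 in INT (FDR = 0.606), 0.25 in SVX (0.657), 0.55 in SVX_VAS (0.294) and 0.93 in VAS (0.0698), all from edgeR, and none passed. The 95% interval of the INT difference was -0.60 to 1.19. The VAS difference passed under 4 of 17 alternatives, among them limma-voom (logFC 1.06, FDR = 0.0273) and edgeR without CONT replicate 4 (1.38, 0.0231) or without VAS replicate 2 (1.11, 0.0421). Nothing is read from these calls, since Ccr3 passed the filter through VAS and SVX_VAS libraries alone. The gene most like Ccr3 was Retnlg (r = 0.82), a resistin-like gene of neutrophils and also 1 of the 12 neutrophil genes listed.

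Siglecf (chr7:43351341-43359531, plus strand), a sialic acid-binding lectin of eosinophils and some macrophages, was below the filter and highest in VAS. It was at 0.354, 0.499 and 0.527 CPM in CONT (27 counts in all), at 0.751, 0.689, 0.850 and 1.53 in INT, between 0.234 and 1.24 in SVX and between 0.658 and 0.992 in SVX_VAS. In VAS it was at 1.90, 4.17, 3.64 and 1.68 CPM, from 34, 90, 78 and 24 counts. Every VAS library was above every library of the other 4 groups.

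The mean of VAS was 2.98 times that of INT (p = 0.0286 in an exact two-sided permutation test, the smallest that 4 against 4 libraries can give) and 6.19 times that of CONT (p = 0.0571, the smallest for 3 against 4). Of the 36300 genes with a count, 0.738% had all VAS libraries above all INT libraries. In edgeR without the filter, the FDR over all genes was 0.601 for VAS against INT and 3.7e-04 for VAS against CONT, so the difference from INT did not pass over all genes. In all, 28 exact tests were run on the genes below the filter. VAS replicates 2 and 3 also had the highest summed CPM of 12 neutrophil genes, 64.7 and 90.4. That sum was 31.9 and 18.8 CPM in VAS replicates 1 and 4 and between 11.1 and 21.9 in the other 15 libraries. VAS replicates 2 and 3 also had the lowest summed CPM of 8 stromal genes, 2184 and 2315 against 5487 or more elsewhere, and the fewest genes with a count, 25016 and 25037 against 27757 or more. The part of these differences in the level of Siglecf was not tested.

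**Figure D3:**
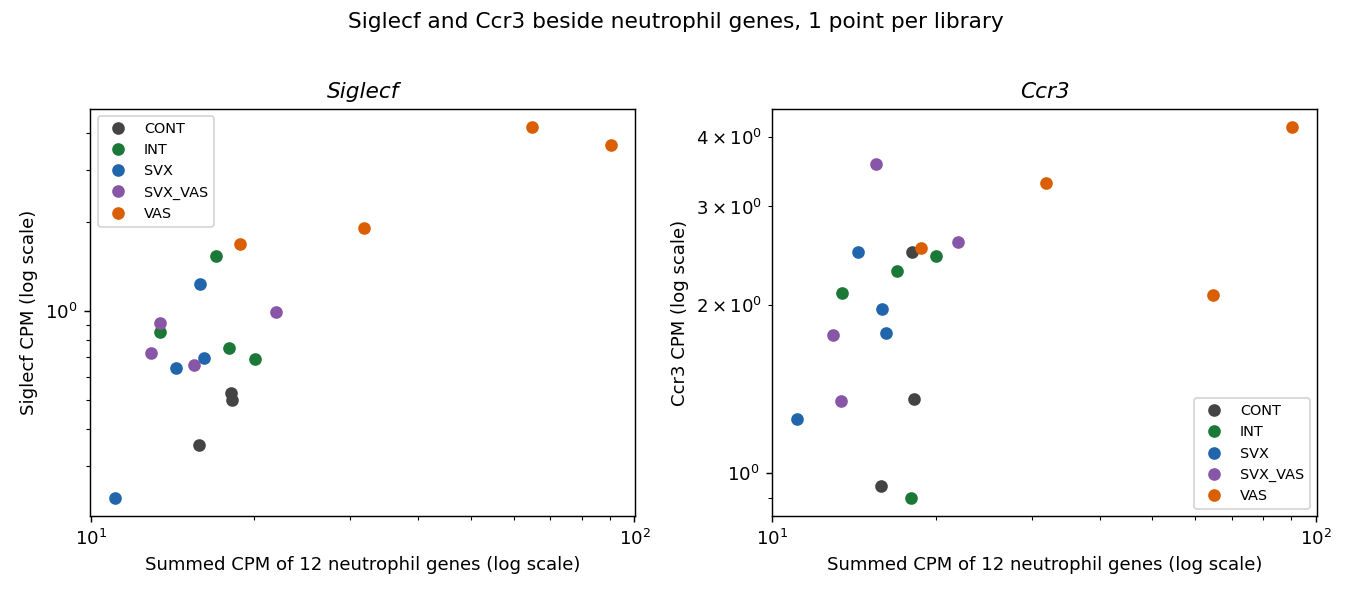
CPM of Siglecf (left) and Ccr3 (right) against the summed CPM of 12 neutrophil genes, both axes logarithmic, with a point per library coloured by group. VAS replicates 2 and 3, at 64.7 and 90.4 summed CPM, stand apart on the horizontal axis and hold the highest Siglecf levels, 4.17 and 3.64 CPM, while for Ccr3 VAS replicate 3 is the highest library with 4.16 CPM and VAS replicate 2 has 2.09 CPM.

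The granule genes gave little signal. Epx (chr11:87864000-87875536, minus strand) had 1, 4 and 5 counts in CONT, between 2 and 4 in INT, and between 0 and 4 in the other groups. The level of Epx was thus at or near the limit of 3 counts in every group. In VAS it had 2, 0, 1 and 0 counts. The exact permutation test of VAS against INT gave p = 0.0286, the smallest possible, from counts that are under or near that limit.

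Prg2 (chr2:84980461-84983632, plus strand) had 1, 2 and 0 counts in CONT, 4, 3, 9 and 6 in INT, between 1 and 4 in SVX, between 5 and 17 in SVX_VAS and between 4 and 22 in VAS. Every library of INT, SVX_VAS and VAS had more Prg2 CPM than every CONT library, and SVX overlapped CONT. Exact permutation tests against CONT gave p = 0.0571, the smallest possible, for each of those 3 groups and 0.0857 for SVX. In edgeR without the filter the FDR was 0.0207 in INT, 0.210 in SVX, 0.0051 in SVX_VAS and 0.0021 in VAS. Its highest level was 1.02 CPM, in VAS replicate 2. Prg2 was thus at its lowest in CONT, where Il5ra and Cd200r3 were at their highest.

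Alox15 (chr11:70344152-70352031, minus strand) was the most abundant of the 10 genes. It encodes 12/15-lipoxygenase, an enzyme of eosinophils, macrophages and epithelia. It was at 105, 154 and 98.5 CPM in CONT, at 192, 126, 162 and 130 in INT, between 177 and 209 in SVX and between 193 and 246 in SVX_VAS. In VAS it was at 175, 87.9, 95.3 and 205 CPM, so that replicates 2 and 3, the libraries with high neutrophil and low stromal sums, lay below all CONT libraries. The part of those sums in the level of Alox15 was not tested. Per kilobase, its mean over the 19 libraries was 68.5 CPM, against 0.0494 for Epx.

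With edgeR, Alox15 rose in SVX_VAS against CONT (logFC 0.88 ± 0.260, FDR = 0.0093) and in SVX (0.71 ± 0.259, FDR = 0.0264). The SVX call was lost without CONT replicate 1 (logFC 0.63, FDR = 0.0974), CONT replicate 4 (0.59, 0.108), SVX replicate 2 (0.68, 0.0538) or SVX replicate 4 (0.68, 0.0540), and without the filter (0.68, 0.0596). The logFC was 0.35 in INT (FDR = 0.279) and 0.24 in VAS (FDR = 0.439). Leaving out VAS replicates 2 and 3, it was 0.71 in VAS (FDR = 0.0072). The genes most like Alox15 were Cdip1 (r = 0.90), Ttpal (0.88) and Gm3527 (0.87).

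Fcer1a (chr1:173221284-173227214, minus strand) had 8 counts in all 19 libraries and none in 13 of them. All 4 VAS libraries were at 0, and a count of 0 allows up to 3 counts. A difference between groups was not detectable at this depth. Fcer1g, the signalling chain that the IgE receptor shares with other Fc receptors, was present without it, at 7.73 ± 1.35 CPM (SD, n = 3) in CONT and 13.3 ± 1.77 (n = 4) in INT (edgeR logFC 0.78, FDR = 0.0011).

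Among the 6 tested genes, 2 were called higher in INT than in CONT (Csf2rb and Csf2rb2), where 20.9% of all 17222 tested genes were, and 2 lower (Cd200r3 and Il5ra, selected for their fall), where 12.7% were. In SVX, 3 were higher and 2 lower, against 23.1% and 18.5% of all tested genes. In SVX_VAS, 3 were higher and 2 lower, against 22.2% and 16.5%. In VAS, 2 were higher and 2 lower, against 23.3% and 17.3%. Groups that do not overlap are common here too, since 62.3% of all tested genes did not overlap between INT and CONT, 70.9% between SVX and CONT, 67.5% between SVX_VAS and CONT and 55.0% between VAS and CONT. Nothing is read from the counts of lower genes, as their contrast selected the genes.

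The mated groups were compared to ask whether the male's surgery changed these genes on day 3.5. None of the 6 tested genes passed in SVX, SVX_VAS or VAS against INT, or in the test of any difference among the 4 mated groups. In edgeR 0% of all tested genes passed in each of these 4 comparisons. At an unadjusted p under 0.05, 3 of the 6 genes differed in SVX against INT (Cd200r3, Il5ra and Csf2rb2), where 4.35% of all genes did, 1 in SVX_VAS (Alox15, 1.97%), 0 in VAS (10.6%) and 2 among all mated groups (Il5ra and Alox15, 7.04%). Nothing is read from these counts, since Cd200r3 and Il5ra passed the filter through CONT and INT replicate 1, whose removal shrinks their SVX differences. DESeq2 called 3, 2, 0 and 14 genes in these comparisons and limma-voom 0, 0, 1663 and 1396, and none of the 6 was among them.

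The mated differences were widest for the genes that varied within groups. Cd200r3 had a logFC of -2.95 in SVX against INT (95% interval -5.42 to -0.47, FDR = 0.9997 in edgeR), which became -1.38 without INT replicate 1. Il5ra had -2.08 (-3.52 to -0.64), which became -1.12 without it. In SVX_VAS against INT, Cd200r3 went from -1.08 to 0.49 and Il5ra from -0.93 to 0.03 without that library. In VAS against INT, Cd200r3 went from -0.92 to 0.65 and Il5ra from -0.12 to 0.84 when it was left out, so the signs in SVX_VAS and VAS rest on it. Csf2rb was at 0.50 (-0.0026 to 1.01) in SVX, 0.37 (-0.14 to 0.88) in SVX_VAS and 0.09 (-0.41 to 0.60) in VAS, all against INT. Csf2rb2 was at 0.60 (0.05 to 1.15), 0.38 (-0.17 to 0.92) and 0.46 (-0.09 to 1.01). Alox15 was at 0.36, 0.53 and -0.12.

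**Figure D4:**
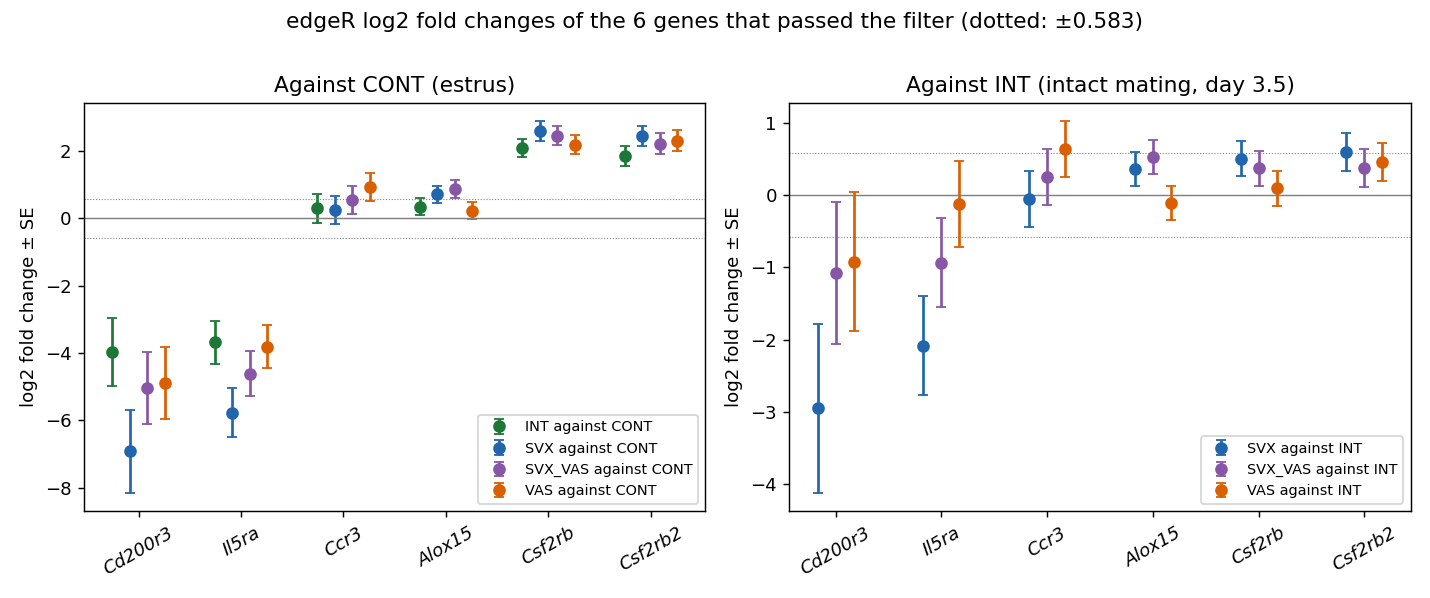
Log2 fold changes with their SE from the edgeR fit for the 6 genes that passed the filter, against CONT (left) and against INT (right), coloured by group, with dotted lines at the logFC cutoff in both directions. Against CONT, Cd200r3 and Il5ra lie between -6.92 and -3.69 and Csf2rb and Csf2rb2 between 1.85 and 2.60, and none of the differences from INT passed the test.

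The wider receptor list held 16 genes, of which 11 were tested. Against CONT, 3 were higher and 3 lower in INT, where 20.9% and 12.7% of all tested genes were. In each of the other mated groups 4 were higher and 3 lower. The shares of all tested genes there were 23.1% and 18.5% in SVX, 22.2% and 16.5% in SVX_VAS and 23.3% and 17.3% in VAS. Cd200r3 and Il5ra are 2 of the 3 lower genes in every group, and since they were selected for that fall nothing is read from the lower count. The median logFC was 0.24 in INT, with these genes included, beside -0.01 over all tested genes. The lower gene that was not so selected was Il4ra, the interleukin-4 receptor alpha chain, at 304 ± 25.4 CPM (SD, n = 3) in CONT and 136 ± 73.6 (n = 4) in INT (edgeR logFC -1.16, FDR = 0.0158). Il1rl1, the interleukin-33 receptor, did not pass in INT (logFC 0.66, FDR = 0.213 in edgeR). It was called higher in SVX, SVX_VAS and VAS, with a logFC between 1.08 and 1.30. Nothing is read from these calls, since Il1rl1 passed the filter through libraries of SVX, SVX_VAS and VAS alone. The counts of higher receptors in those groups include it. Ptgdr2, a prostaglandin D2 receptor, was at 17.7 ± 4.08 CPM in CONT and 12.7 ± 3.27 in INT (FDR = 0.253 in edgeR).

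Of 14 ligands and chemoattractants, 7 were tested. In INT, 2 were higher and 1 lower than in CONT, against 20.9% and 12.7% of all tested genes, with a median logFC of 0.36. Ccl11, the eotaxin that Ccr3 binds, was at 34.6 ± 8.22 CPM (SD, n = 3) in CONT and 8.27 ± 7.68 (n = 4) in INT, and fell by 2.07 on the log2 scale (edgeR, FDR = 0.0340). It fell in the other mated groups too, with a logFC of -3.28 in SVX, -2.50 in SVX_VAS and -2.31 in VAS. Ccl24, another eotaxin, had no count in INT and 4 in CONT. Cd200, the surface ligand of the classical CD200 receptor, rose from 25.0 ± 5.10 to 109 ± 19.8 CPM (edgeR logFC 2.12, FDR = 1.1e-05). The other gene called higher was Ccl5 (logFC 1.19, FDR = 0.0243 in edgeR). Nothing is read from the Ccl5 call, since Ccl5 passed the filter through mated libraries alone. Il5 itself was below the filter, at 0.144 ± 0.0591 CPM in CONT and 0.767 ± 0.509 in INT, and Il3 was near 0. Csf2 had 2 counts in CONT and 5 in INT and reached 1.58 CPM, from 34 counts, in a VAS library. The eotaxin gene thus moved in the direction of Il5ra, and the CD200 gene moved opposite to Cd200r3.

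Of 8 transcription factors of these lineages, 6 were tested, with 3 higher and 0 lower in INT, against 20.9% and 12.7% of all tested genes, and a median logFC of 0.60 beside -0.01 over all. Cebpa rose by a logFC of 1.36 (edgeR FDR = 0.0017), Id2 by 1.19 (FDR = 5.6e-04) and Spi1 by 0.95 (FDR = 0.0310). Nothing is read from the Spi1 call, since Spi1 passed the filter mainly through mated libraries. It was between 2.07 and 3.46 CPM in CONT. The counts of higher transcription factors in INT, SVX and VAS include it. The list had 3 higher and 1 lower in SVX, against 23.1% and 18.5% of all tested genes. It had 2 and 1 in SVX_VAS, against 22.2% and 16.5%, and 3 and 0 in VAS, against 23.3% and 17.3%. The lower gene was Runx1, with a logFC of -0.61 in SVX (edgeR FDR = 0.0360) and -0.60 in SVX_VAS (FDR = 0.0433). Gata1, which eosinophil development requires, was below the filter at 0.276 ± 0.188 CPM in CONT and 0.209 ± 0.112 in INT. Gata2, which is also abundant in endometrium, was at 102 ± 10.3 and 120 ± 26.4 CPM (FDR = 0.204 in edgeR).

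**Figure D5:**
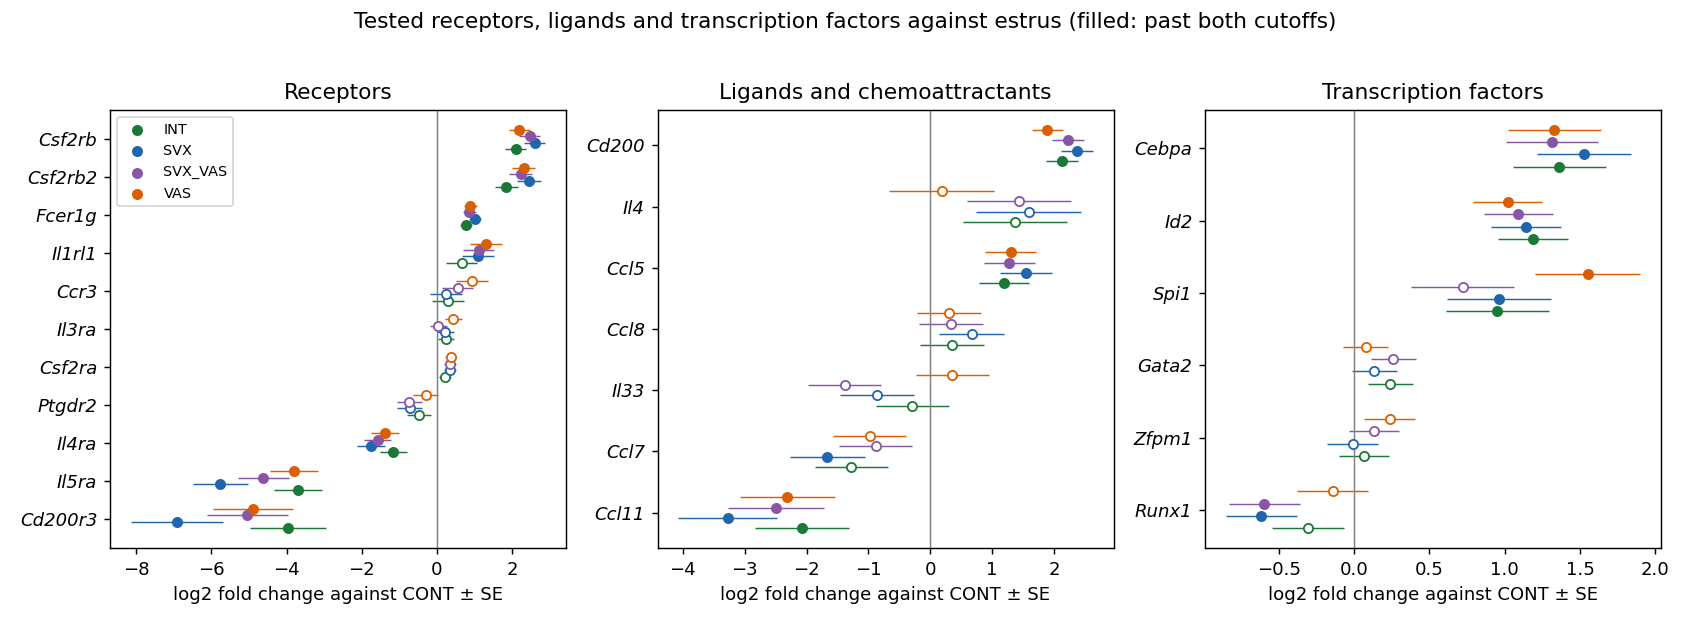
Log2 fold changes against CONT with their SE for the tested receptors (11), ligands and chemoattractants (7) and transcription factors (6), with a point per mated group, filled where it passed both cutoffs. In the receptor panel Cd200r3, Il5ra and Il4ra are lower in all 4 groups and Csf2rb, Csf2rb2 and Fcer1g higher. In the ligand panel Ccl11 is lower and Cd200 and Ccl5 higher in all 4, and Ccl5 passed the filter through mated libraries alone.

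Markers of other leukocytes were set beside these genes. In INT against CONT, 20.9% of all tested genes were higher and 12.7% lower, beside which the counts of each list stand. Of 8 pan-leukocyte genes, 6 were higher and 2 lower, with Ptprc (CD45) rising from 52.7 ± 20.4 to 134 ± 11.5 CPM (edgeR logFC 1.35, FDR = 2.5e-04) and Itgam falling by 2.39 (FDR = 0.0122). Of 7 dendritic cell genes 6 were tested, with 5 higher and 0 lower in INT and a median logFC of 1.68. Nothing is read from that count, since Flt3 and Xcr1, called higher, passed the filter through mated libraries alone. Of 10 macrophage genes 9 were tested, with 5 higher and 1 lower and a median logFC of 0.87. Of 10 basophil genes 4 were tested, and the 1 called was Cd200r3, which was selected for its fall in this contrast, so nothing is read from that count. Of 14 mast cell genes 3 were tested, with Hdc (logFC 3.08, edgeR FDR = 1.3e-05) and Kit (1.52, FDR = 6.2e-06) higher, while the proteases Cpa3, Tpsb2, Cma1, Mcpt4 and Tpsab1 stayed below the filter and Mcpt1 and Mcpt2 had 1 count each in all libraries. Of 12 neutrophil genes 4 were tested, with Csf3r higher (1.64, FDR = 0.0058 in edgeR) and Ly6g lower (-2.54, FDR = 0.0137). Nothing is read from the Csf3r call, since Csf3r passed the filter through mated libraries alone. The Ly6g call is not read either, since Ly6g passed mainly through the CONT libraries, where it was highest. It reached at most 0.234 CPM in SVX and 0.950 in SVX_VAS. Ly6g, a granulocyte surface gene, was at 9.16 ± 2.12 CPM in CONT and 1.58 ± 1.60 in INT.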

How the data were processed

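Endometrial RNA of 19 pooled samples in 5 groups was sequenced from stranded total RNA libraries. According to the study's methods and the submitters' notes, adapters were removed, reads were aligned to GRCm38 (mm10) with STAR and counted per gene with featureCounts. The authors deposited raw counts per gene, and the strand setting of the counting is not given in the sources used here. From these counts, 17222 genes passed a minimum of 3 CPM in 3 or more of the 19 libraries. All 5 groups entered 1 quasi-likelihood fit of edgeR 4.0.16 (R 4.3.3) with TMM scaling and no replicate block. Calls needed an FDR (Benjamini-Hochberg) up to 0.05 and a logFC beyond 0.583 in either direction. For the test among the mated groups only the FDR was used. Genes below the filter were compared with exact permutation tests on CPM (35 or 70 splits). DESeq2 1.42.0, limma-voom (limma 3.58.1), other filters and scalings, a replicate block and left-out libraries were the alternatives. The fit was tested on simulated data. Log2 CPM used a prior count of 2. The members and lists were chosen with earlier results of these data known. Named genes are the members, list genes that were called or define a cell type or that the text sets beside a member, and the 3 genes with the highest r to each tested member. The limit of 3 counts covers counting error only. Figures were drawn with Python 3.11.15.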

Additional observations from a re-analysis of the deposited data

How the results depend on the processing

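The numbers of the 10 genes called were within 1.5 times the reported ones under every alternative run. They were between 4 and 5 in INT and SVX against CONT, 5 to 6 in SVX_VAS, 4 to 6 in VAS, and 0 in every comparison among mated groups. These counts against CONT include Cd200r3 and Il5ra, which were selected for their fall. Csf2rb and Csf2rb2 kept their direction and side of the cutoffs against CONT under every alternative run. Alox15 in SVX and Ccr3 and Alox15 in VAS did not, as given above. Without a filter the number of genes called among mated groups stayed at 0 in edgeR, and the limma-voom count of 1663 for VAS against INT was the largest departure. With the replicate number as a block (replicate block), 4 genes were called in INT, 5 in SVX, 5 in SVX_VAS and 5 in VAS against CONT, and Ccr3 in VAS became called (logFC 1.01, FDR = 0.0416 in edgeR), from which nothing is read for the reason given above. The numbers do not pair the libraries, since 15 of 36 same-numbered pairs had r above 0.1 and 4 of 19 libraries correlated best with their own number. Depth limits Epx, Prg2 and Fcer1a, whose highest counts were 5, 22 and 2.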
